A study of Mus musculus with 6 samples.

Results

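The genes described here encode 10 matricellular and adhesive matrix proteins: fibronectin (Fn1), tenascin-C (Tnc), periostin (Postn), thrombospondins 1 to 3 (Thbs1, Thbs2, Thbs3), SPARC (Sparc), osteopontin (Spp1), the TGF-beta-induced protein (Tgfbi) and dermatopontin (Dpt). They were taken by gene symbol, and all 10 had a row among the 16874 genes of the deposited table. RNA sequencing was done on colon fibroblasts, cultured connective tissue cells of the large bowel, from C57BL/6 mice aged 12 weeks. The libraries were 3 labelled Prkcz-/-, the knockout of the gene for protein kinase C zeta, and they were compared with 3 labelled WT. Neither group was treated, and cells were harvested at about 80% confluency, 24 h after they were plated. The series' design text also mentions a control guide and a Sox2 guide, but the labels of these 6 libraries give the genotype alone, and they do not say if either guide was present. No label tells whether replicate libraries stem from different animals or dishes. The p-values therefore measure the spread between these libraries, which may be technical.

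Matricellular proteins are secreted into the extracellular matrix, where most of them modulate adhesion and growth factor signals and do not build the scaffold. Fibroblasts are a main source of them in the bowel wall, and several are induced in wounds and in tumour stroma. Cells read them through integrins, of which one class recognises the short RGD motif, and through receptors such as CD36, CD47, CD44, LRP1 and syndecans. Fibronectin is more structural: cells pull it into fibrils on which collagens and other matrix proteins assemble.

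The knockout label was checked on Prkcz itself, which was higher where the label says it is knocked out. It measured 1.35, 1.32 and 1.17 FPKM (a read level per gene length and library depth) in the libraries labelled Prkcz-/-, against 0.0433, 0.144 and 0.202 FPKM in those labelled WT. A gene-level value cannot tell an intact transcript from one lacking an exon, so every direction below follows the labels alone. Were the labels exchanged, each of these directions would turn, and this was not tested. From the steps of low values, depth was estimated roughly at 14700000 to 16700000 reads in the libraries labelled Prkcz-/- and 14500000 to 16300000 in those labelled WT. The 11 fibroblast markers ranged widely, with 7 called higher and 4 lower by the test given below. Of these, Fap (higher) and Lum (lower) averaged under 0.5 FPKM under the label where they were low. Each passed the filter on low values only through the other label, so these counts depend partly on the filter. Of all tested genes, 31.5% were called higher and 37.2% lower. Most abundant was Col1a1, at 2972 ± 66.5 FPKM in libraries labelled Prkcz-/- and 1815 ± 88.7 FPKM in WT (SD, n = 3 each). Epithelial markers (10 of 11 listed had a row) summed to 1.11 to 1.93 FPKM in libraries labelled Prkcz-/- and 1.73 to 2.45 FPKM in WT. Endothelial markers (6 of 7 with a row) summed to 0.592 to 0.69 FPKM in libraries labelled Prkcz-/- and 0.66 to 0.916 FPKM in WT, and the Prkcz-/- label had Cdh5 and Emcn at 0 throughout. Macrophage and leukocyte markers (7 of 10 with a row) summed to 2.21 to 3.26 FPKM in libraries labelled Prkcz-/- and 2.18 to 3.19 FPKM in WT, and Ptprc was listed at 0 in each WT library.

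Of the 10 genes, 6 rose and 3 fell where the label was Prkcz-/- (limma on log2(FPKM + 0.5), adjusted p under 0.05 over all 12130 genes tested), and Thbs1 did not pass the threshold. All 10 passed the filter on low values. Across all tested genes 68.7% passed this threshold (31.5% up and 37.2% down), so a count of 9 in 10 has to be read against a contrast in which most genes differed. The split of all genes depends on scaling: 3825 were higher and 4511 lower as deposited, and 4695 were higher and 3616 lower after scaling to the FPKM sum. Groups did not overlap for 9 of the 10, against 72.7% of tested genes. A change of at least 2-fold as well was seen in 3 of the 10 (Tgfbi and Thbs3 higher, Dpt lower), against 10.8% of all tested genes, with 7.29% up and 3.55% down. The median log2 change of the 10 was 0.53, beside -0.04 for all tested genes. These directions come from bulk RNA, in which fewer cells of a type and less RNA per cell cannot be told apart.

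**Figure D1:**
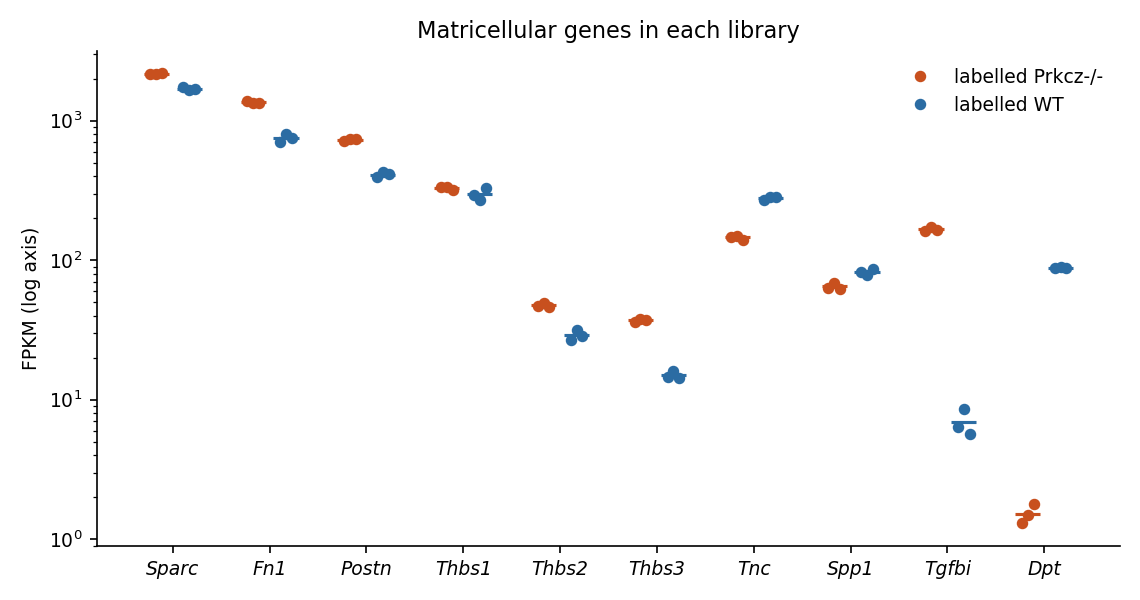
FPKM of each matricellular gene in each library on a log axis, with libraries labelled Prkcz-/- to the left of those labelled WT and a line at each group's mean. Only the Thbs1 points of the groups overlap; Tgfbi lies at 162 to 174 FPKM in libraries labelled Prkcz-/- and 5.72 to 8.62 FPKM in WT, and Dpt at 1.30 to 1.78 FPKM in libraries labelled Prkcz-/- and 87.7 to 89.8 FPKM in WT.

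The start regions of 4 of these genes are printed because they belong to the members that moved most in each direction: Dpt and Tnc, which fell, and Tgfbi and Thbs3, which rose. Each window runs from 250 bases before the RefSeq transcription start to 30 bases after it (GRCm38.p6), written 5′ to 3′ on the gene's strand. Capitals mark matches, on either strand, to the letters of the motifs listed after them. The windows are chr1:164796413-164796692 on the plus strand for Dpt, chr4:64046986-64047265 on the minus strand for Tnc (the upstream of its 2 annotated starts), chr13:56609336-56609615 on the plus strand for Tgfbi and chr3:89214930-89215209 on the plus strand for Thbs3.
Dpt: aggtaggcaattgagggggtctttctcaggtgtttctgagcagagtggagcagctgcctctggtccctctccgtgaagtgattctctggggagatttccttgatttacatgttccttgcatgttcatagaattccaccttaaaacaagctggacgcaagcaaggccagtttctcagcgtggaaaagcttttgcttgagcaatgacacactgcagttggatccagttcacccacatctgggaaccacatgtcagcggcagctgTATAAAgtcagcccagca
Tnc: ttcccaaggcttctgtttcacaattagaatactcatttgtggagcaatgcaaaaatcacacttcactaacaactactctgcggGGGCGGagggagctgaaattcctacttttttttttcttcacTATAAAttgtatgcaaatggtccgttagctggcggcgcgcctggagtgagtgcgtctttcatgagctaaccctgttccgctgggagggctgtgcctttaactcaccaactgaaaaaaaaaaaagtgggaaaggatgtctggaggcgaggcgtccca
Tgfbi: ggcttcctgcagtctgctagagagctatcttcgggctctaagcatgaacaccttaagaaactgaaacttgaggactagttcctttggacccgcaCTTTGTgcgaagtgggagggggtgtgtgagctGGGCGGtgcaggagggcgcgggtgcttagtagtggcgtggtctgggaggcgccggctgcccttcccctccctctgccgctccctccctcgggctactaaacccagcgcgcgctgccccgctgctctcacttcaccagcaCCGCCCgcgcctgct
Thbs3: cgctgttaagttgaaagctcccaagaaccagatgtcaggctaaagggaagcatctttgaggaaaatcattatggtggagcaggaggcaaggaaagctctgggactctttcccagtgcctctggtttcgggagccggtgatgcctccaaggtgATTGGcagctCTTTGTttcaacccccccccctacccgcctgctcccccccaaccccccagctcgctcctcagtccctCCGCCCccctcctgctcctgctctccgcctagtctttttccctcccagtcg

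The letters of 8 motifs were searched on both strands: the TATA box was read as TATAAA, the AP-1 site as TGANTCA and the GC box as GGGCGG. The core of SOX factor sites was read as ACAAAG, with ACAATG as its other form. A CCAAT box was read by its name, a palindrome of SMAD factors as GTCTAGAC, the site of TEAD factors as GGAATG and the E-box as CACGTG. Windows were at hand for 8 of the 10 genes, with 11 starts in all. Tgfbi held a SOX core 156 bases before the start, a GC box 124 bases before it and a further GC box 16 bases into the transcript. Its window was 63.2% G and C with 18 CpG dinucleotides, beside medians of 52.5% and 6 over all 32851 windows. Thbs3 held a CCAAT box, a SOX core and a GC box at 98, 88 and 21 bases before the start. Tnc held a GC box and a TATA box at 167 and 126 bases before its upstream start, and Dpt held a TATA box 13 bases into the annotated transcript. SOX core letters were found in Tgfbi, Thbs3 and both starts of Spp1, and in 27.4% of all windows. A TATA box was found in both starts of Tnc, whose windows overlap, in 1 start each of Dpt, Postn, Thbs2 and Spp1, and in 13.1% of all windows. A CCAAT box was found in 1 start each of Postn, Thbs2, Thbs3 and Spp1, and in 36.1% of all windows. A GC box was found in both starts of Tnc, in Tgfbi and Thbs3, and in 34.7% of all windows. The AP-1, SMAD, TEAD and E-box letters were in none of the 11 windows of these genes, and in 7.46%, 0.192%, 13.9% and 6.79% of all windows. A match is a string of letters and not a bound site, and the letters' absence says nothing of the factor.

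Sparc and Fn1, the abundant collagen-binding and fibril-forming members, were both higher. Sparc, a secreted calcium-binding glycoprotein that binds collagen (minus strand, chr11:55394500-55423183), measured 2170.2, 2168 and 2183 FPKM in libraries labelled Prkcz-/- and 1727, 1662 and 1687 FPKM in WT. Among all genes of the table it ranked 8 to 9 in libraries labelled Prkcz-/- and 10 to 11 in WT. The log2 change was 0.36 (SE 0.035, limma adjusted p = 4.39e-05), and it shrank to 0.10 (limma adjusted p = 0.0271) with quantile normalization. Fn1 (minus strand, chr1:71585520-71653200) measured 1384, 1342 and 1339.8 FPKM in libraries labelled Prkcz-/- and 701, 804 and 751 FPKM in WT. Its groups were far apart, and the log2 change was 0.85 (SE 0.0519, limma adjusted p = 3.36e-06). The rise in Fn1 exceeded that in Sparc, so that the ratio of Sparc to Fn1 was 1.57, 1.62 and 1.63 in libraries labelled Prkcz-/- and 2.46, 2.07 and 2.25 in WT. The values refer to whole genes and do not separate the splice forms of Fn1, Tnc or Postn.

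The FAS1-domain relatives Tgfbi and Postn rose by very different amounts. Tgfbi encodes a secreted protein, named for its induction by TGF-beta, that binds integrins and collagens (plus strand, chr13:56609523-56639562). It measured 162, 174 and 166 FPKM in libraries labelled Prkcz-/- and 6.38, 8.62 and 5.72 FPKM in WT. Every WT library lay below every library labelled Prkcz-/-, and the means differed 24.2-fold. The log2 change of Tgfbi was 4.52 (SE 0.125, limma adjusted p = 5.1e-08), and 25 of the 12130 tested genes, Tgfbi included, rose at least as much. Its place among all genes was 372 to 408 in libraries labelled Prkcz-/- and 7437 to 8519 in WT. Postn encodes periostin, which binds integrins and aids collagen cross-linking (plus strand, chr3:54361109-54391037). It measured 711, 744 and 737 FPKM in libraries labelled Prkcz-/- and 391, 428 and 411 FPKM in WT, without overlap. Its log2 change was 0.83 (SE 0.0413, limma adjusted p = 1.08e-06). The ratio of Tgfbi to Postn was 0.227, 0.234 and 0.225 in libraries labelled Prkcz-/- and 0.0163, 0.0202 and 0.0139 in WT.

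**Figure D2:**
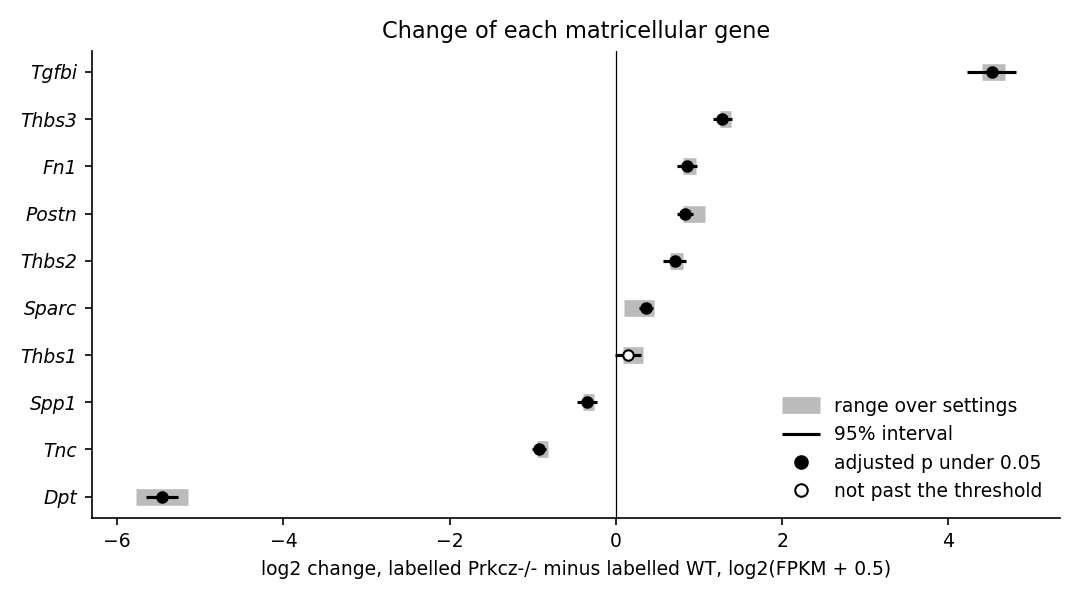
Log2 change of each matricellular gene, libraries labelled Prkcz-/- minus libraries labelled WT on the log2(FPKM + 0.5) scale; black bars are 95% intervals of the limma fit and grey bars the range over 17 settings. Changes run from -5.46 for Dpt to 4.52 for Tgfbi, and the Thbs1 interval alone includes 0.

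Dpt fell most. It encodes dermatopontin, a small tyrosine-rich protein that binds decorin and fibronectin and promotes collagen fibril formation, and in mouse tissues it is a marker of a widespread fibroblast population (plus strand, chr1:164796644-164824266). It measured 1.30, 1.49 and 1.78 FPKM in libraries labelled Prkcz-/- and 87.7, 89.8 and 87.8 FPKM in WT. By an approximate conversion that is 33.0 to 48.7 reads per library labelled Prkcz-/- and 2240.0 to 2470.0 reads per WT library. The means were 57.99-fold lower in the libraries labelled Prkcz-/-, and the log2 change was -5.46 (SE 0.0815, limma adjusted p = 3.66e-09). Of the tested genes, 2 fell at least as much, Dpt included. Of the 2 partners named, decorin (Dcn) fell as well, to 5.34 ± 0.892 FPKM in libraries labelled Prkcz-/- against 49.1 ± 2.48 FPKM in WT (SD, n = 3 each, log2 change -3.09, limma adjusted p = 1.11e-07). The gene of the other, Fn1, rose (log2 change 0.85). The fibroblast markers did not all fall: Pdgfrb, a growth factor receptor of mesenchymal cells, measured 99.6 ± 0.515 FPKM in libraries labelled Prkcz-/- and 34.97 ± 0.930 FPKM in WT, and S100a4 2121 ± 22.2 FPKM in libraries labelled Prkcz-/- and 1027 ± 39.9 FPKM in WT. The proteoglycan gene Lum was lower, at 0.0921 ± 0.0513 FPKM in libraries labelled Prkcz-/- and 3.39 ± 0.583 FPKM in WT. Lum passed the filter on low values only through the WT libraries.

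Tnc and Spp1 were lower as well, by smaller amounts. Tnc, whose product tenascin-C modulates cell adhesion to fibronectin (minus strand, chr4:63959785-64047015), measured 147, 149.7 and 140.4 FPKM in libraries labelled Prkcz-/- and 268, 281 and 283 FPKM in WT. Each WT library lay above each library labelled Prkcz-/-, and the log2 change was -0.93 (SE 0.0377, limma adjusted p = 3.58e-07). As Fn1 rose and Tnc fell, the Tnc to Fn1 ratio was 0.106, 0.112 and 0.105 in libraries labelled Prkcz-/- and 0.383, 0.350 and 0.377 in WT. Spp1 encodes osteopontin, a phosphoprotein ligand of RGD-binding integrins and CD44 (plus strand, chr5:104435118-104441050). It measured 62.8, 68.98 and 62.5 FPKM in libraries labelled Prkcz-/- and 82.02, 78.5 and 86.95 FPKM in WT. The groups did not overlap, but the gap was modest: the log2 change was -0.35 (SE 0.053, limma adjusted p = 5.84e-04). Spp1 shares 309 exon bases with an unnamed gene model (Gm42793) on the same strand.

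The 3 thrombospondins responded unequally. Thbs1, which encodes a trimeric protein that binds CD36 and CD47 and can activate latent TGF-beta (plus strand, chr2:118111876-118127133), measured 333, 334 and 316 FPKM in libraries labelled Prkcz-/- and 290.4, 271 and 328 FPKM in WT. WT library 3 lay within the range of the libraries labelled Prkcz-/-. The log2 change was 0.15 (95% interval -0.01 to 0.30, limma adjusted p = 0.0826). That call turned with the setting: Thbs1 passed as higher without WT replicate 3 (0.22, limma adjusted p = 0.00533), with quantile normalization (0.32, adjusted p = 0.00388) and after scaling to the FPKM sum (0.24, adjusted p = 0.011), and over all settings its adjusted p ran from 0.00388 to 0.231.

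Thbs2, the other trimeric member (minus strand, chr17:14665500-14694235), measured 46.7, 49.003 and 46.4 FPKM in libraries labelled Prkcz-/- and 26.6, 31.4 and 28.6 FPKM in WT, and its log2 change was 0.71 (SE 0.0605, limma adjusted p = 2.22e-05). Thbs3, of the pentameric subgroup (plus strand, chr3:89215180-89226837), measured 36.2, 37.6 and 37.1 FPKM in libraries labelled Prkcz-/- and 14.6, 15.98 and 14.4 FPKM in WT, and its log2 change was 1.28 (SE 0.0491, limma adjusted p = 2.59e-07). Neither gene's groups overlapped. Mtx1 shares 318 exon bases with Thbs3 on the opposite strand, and it measured 23.99 ± 1.20 FPKM in libraries labelled Prkcz-/- and 26.7 ± 1.34 FPKM in WT. The libraries were strand-specific, but whether counting used strand is not stated in the sources at hand. Fn1 and Apol7d, which share 292 exon bases on opposite strands, raise the same point, with Apol7d at most 0.171 FPKM in any library. So do Tnc, which shares 176 exon bases with 8030451A03Rik, and Thbs1, which shares 208 with Gm29233. Both of these gene models lie on the opposite strand and had no row among the deposited genes.

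Ratios within a library do not change when all its values are multiplied by a common factor. Quantile normalization is no such scaling, and under it the log2 change was 0.97 for Fn1 and 0.10 for Sparc. The ratio of Thbs2 to Thbs1 was 0.1404, 0.147 and 0.147 in libraries labelled Prkcz-/- and 0.0917, 0.116 and 0.0872 in WT. That of Thbs3 to Thbs1 was 0.109, 0.112 and 0.118 in libraries labelled Prkcz-/- and 0.0502, 0.0589 and 0.0437 in WT. Thbs2 to Thbs3 went the other way, at 1.29, 1.30 and 1.25 in libraries labelled Prkcz-/- and 1.83, 1.97 and 1.99 in WT. Differences of the mean log2 ratio were 0.56, 1.13 and -0.57 for these pairs, 3.68 for Tgfbi over Postn, -1.78 for Tnc over Fn1 and -0.49 for Sparc over Fn1. None of the 6 ratios overlapped between the groups, while the groups did not overlap for 72.7% of single tested genes. No such share was computed for ratios of other genes. The pairs were chosen with earlier results known, and each holds a member whose own groups did not overlap. The two-sided exact permutation test gave p = 0.1 for each ratio (0.1 after adjustment over the 6), the smallest that 3 libraries against 3 can give, so the design cannot reach 0.05 by this test.

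**Figure D3:**
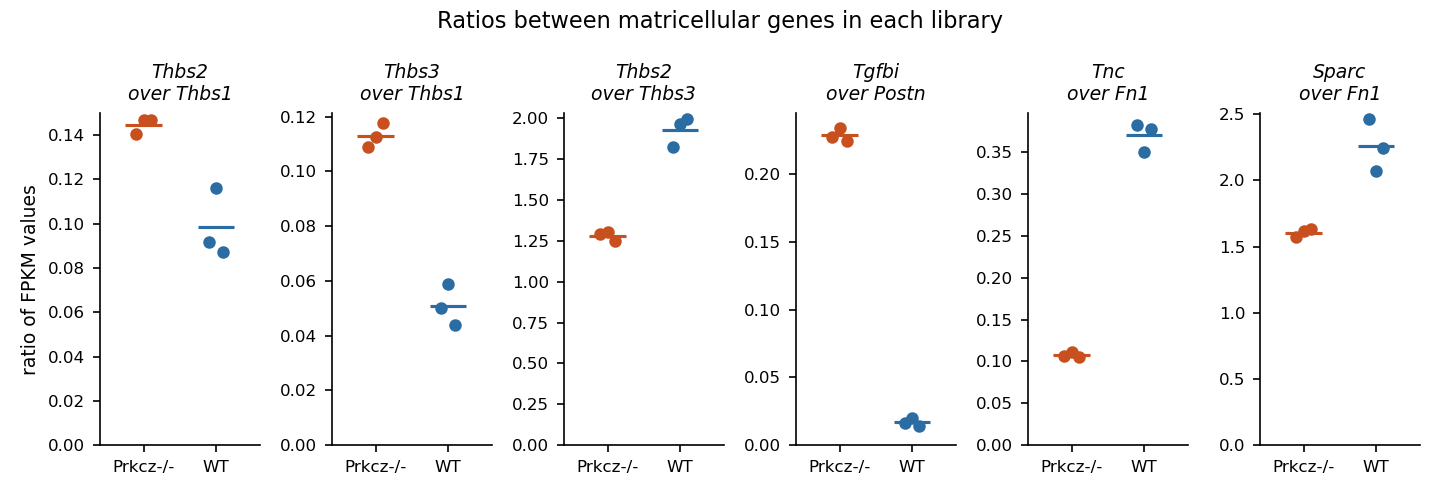
Ratio of the FPKM values of pairs of matricellular genes in each library, from 0, with libraries labelled Prkcz-/- left of WT and a line at each mean. The groups do not overlap in any panel; Tgfbi over Postn lies at 0.225 to 0.234 in libraries labelled Prkcz-/- and 0.0139 to 0.0202 in WT.

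The order of the levels changed with Tgfbi and Dpt. In libraries labelled Prkcz-/- it ran Sparc, Fn1, Postn, Thbs1, Tgfbi, Tnc, Spp1, Thbs2, Thbs3 and Dpt, and no neighbours in that order had overlapping ranges. In WT it ran Sparc, Fn1, Postn, Thbs1, Tnc, Dpt, Spp1, Thbs2, Thbs3 and Tgfbi, and only Thbs1 and Tnc overlapped. Tgfbi was thus the lowest member in WT, and Dpt the lowest in libraries labelled Prkcz-/-. The sum of the 10 genes was 5051 ± 19.7 FPKM in libraries labelled Prkcz-/- and 3650 ± 47.3 FPKM in WT (SD, n = 3 each), which is 1.14 ± 0.00543% of the FPKM sum of all genes in libraries labelled Prkcz-/- and 0.775 ± 0.0322% in WT. Sparc made up 43.04 ± 0.325% of that sum in libraries labelled Prkcz-/- and 46.4 ± 1.47% in WT, and Fn1 made up 26.8 ± 0.482% in libraries labelled Prkcz-/- and 20.6 ± 1.21% in WT. The share of Tgfbi was 3.31 ± 0.118% in libraries labelled Prkcz-/- and 0.189 ± 0.0411% in WT, and that of Dpt 0.0302 ± 0.00482% in libraries labelled Prkcz-/- and 2.42 ± 0.0336% in WT. Replicates were tight: the coefficient of variation ran from 0.369% (Sparc) to 15.7% (Dpt) in libraries labelled Prkcz-/- and from 1.30% (Dpt) to 22.04% (Tgfbi) in WT, so that the widest relative spread was at the lowest level under each label.

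**Figure D4:**
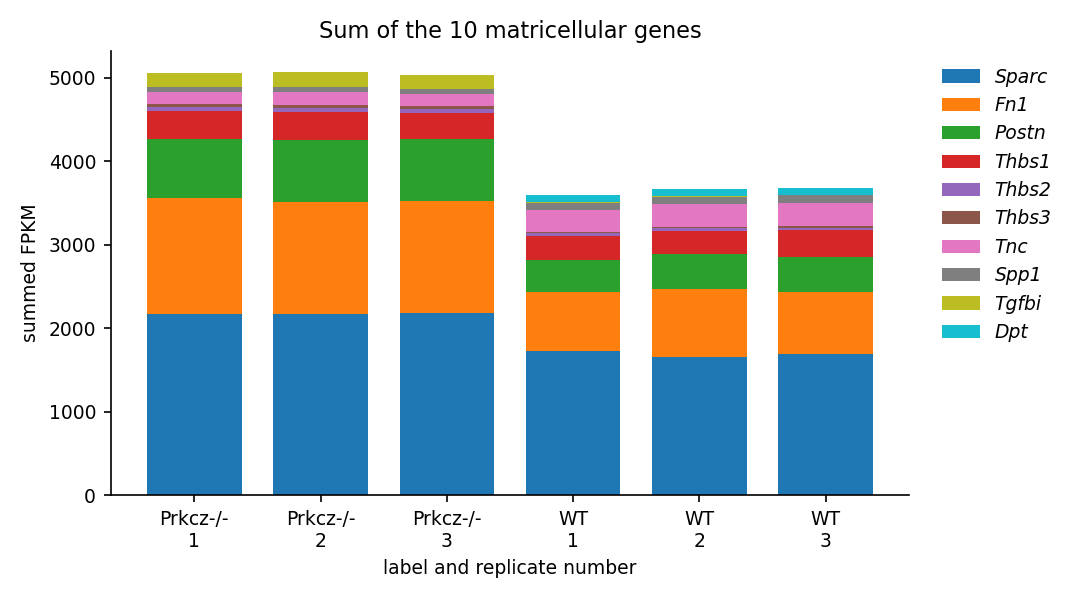
Stacked FPKM of the 10 matricellular genes in each library, libraries labelled Prkcz-/- left of WT. The stacks reach 5030 to 5068 FPKM in libraries labelled Prkcz-/- and 3596 to 3683 FPKM in WT, with Sparc and Fn1 as the widest bands.

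Relatives of these genes outside the 10 were mostly low. Of 19 listed family relatives (thrombospondins, tenascins, SPARC and osteopontin relatives), 15 had a row and 5 were tested, of which 4 rose and 1 fell. These lists come from the same contrast, so their counts stand beside the 31.5% of all tested genes that rose and the 37.2% that fell. The median log2 change of the 5 relatives was 2.82 (1.76 over 7 tested, of which 6 rose, after scaling to the FPKM sum), and the other 10 with a row did not pass the filter on low values. Tnn, which encodes tenascin-W, measured 15.3 ± 0.816 FPKM (SD, n = 3) in libraries labelled Prkcz-/- and was listed at 0 in each WT library (limma adjusted p = 4.83e-09). Tnn and Tnc, both tenascins, thus moved in opposite directions. Smoc2, of the SPARC family, measured 20.6 ± 0.235 FPKM in libraries labelled Prkcz-/- and 2.46 ± 0.302 FPKM in WT (log2 change 2.84). Sparcl1, also of that family, measured 5.87 ± 0.445 FPKM in libraries labelled Prkcz-/- and 0.409 ± 0.121 FPKM in WT (log2 change 2.82). Fstl1, a secreted glycoprotein with a SPARC-like module, was the most abundant relative, at 719 ± 13.7 FPKM in libraries labelled Prkcz-/- and 497 ± 9.24 FPKM in WT (log2 change 0.53). The lower gene, named after its value was seen, was Spock3, at 0.284 ± 0.0861 FPKM in libraries labelled Prkcz-/- and 1.57 ± 0.192 FPKM in WT. Tnn, Sparcl1 and Spock3 averaged under 0.5 FPKM under the label where they were low. They passed the filter through the other label alone, so the count and median of the relatives depend partly on the filter.

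Integrin subunits that recognise RGD were mostly higher: 8 of 9 listed were tested, 6 rose, 1 fell and 1 did not pass, with a median log2 change of 0.44, beside 31.5% higher and 37.2% lower over all tested genes. With quantile normalization 5 rose and 2 fell. Itga5, the alpha subunit of the main fibronectin receptor, measured 89.5 ± 2.03 FPKM in libraries labelled Prkcz-/- and 52.9 ± 2.09 FPKM in WT (log2 change 0.75, limma adjusted p = 1.43e-06). Its partner Itgb1 was the abundant member and the exception, at 358 ± 1.84 FPKM in libraries labelled Prkcz-/- and 511 ± 11.3 FPKM in WT (log2 change -0.51, limma adjusted p = 3.04e-06). Itgb5 and Itgav, which pair as a vitronectin receptor, rose less, by 0.32 and 0.20 on the log2 scale. Itga8, a receptor subunit for several RGD ligands of mesenchyme, measured 2.22 ± 0.0572 FPKM in libraries labelled Prkcz-/- and 0.0658 ± 0.0132 FPKM in WT. Itga8 and Itgb8, the latter named after its value was seen, are among the higher genes and averaged under 0.5 FPKM in WT. Both passed the filter on low values only through the libraries labelled Prkcz-/-, so the count depends partly on the filter. Of 7 other integrin subunits that bind members, 4 were tested, of which 1 rose (Itga4, at 1.21 ± 0.162 FPKM in libraries labelled Prkcz-/- and 0.104 ± 0.0119 FPKM in WT), 2 fell (Itga3 and Itga6) and 1 did not pass. Itga4 too passed the filter only through the libraries labelled Prkcz-/-, and the call of Itga3 was lost after scaling to the FPKM sum (limma adjusted p = 0.115). The median log2 change of the 4 was -0.01, beside 0.01 with median-ratio scaling, 0.31 after scaling to the FPKM sum (5 tested) and -0.20 with quantile normalization.

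Of 12 non-integrin receptors, 10 were tested, 6 rose and 4 fell (median log2 change 0.27, with 68.7% of all tested genes called). Of the lower calls, that of Cd44 was lost with quantile normalization and that of Cacna2d1 after scaling to the FPKM sum, both named after their values were seen. Sdc4, a syndecan that binds fibronectin and thrombospondin, rose to 111.1 ± 2.23 FPKM in libraries labelled Prkcz-/-, against 52.6 ± 2.35 FPKM in WT (log2 change 1.07, limma adjusted p = 2.35e-07). Lrp1, the endocytic receptor that clears thrombospondins, measured 150.1 ± 2.68 FPKM in libraries labelled Prkcz-/- and 106 ± 7.90 FPKM in WT (log2 change 0.50). Calr, its partner for thrombospondin at the cell surface, measured 620.2 ± 3.70 FPKM in libraries labelled Prkcz-/- and 909 ± 7.72 FPKM in WT (log2 change -0.55). Vldlr rose and Lrp8 fell, by log2 changes of 1.45 and -1.18. The thrombospondin receptors Cd36 and Cd47 are named after their values were seen: Cd36 reached a mean of 0.00572 FPKM in libraries labelled Prkcz-/- and 0.0241 FPKM in WT and was not tested, while Cd47 measured 36.4 ± 1.30 FPKM in libraries labelled Prkcz-/- and 32.8 ± 0.738 FPKM in WT (log2 change 0.15, limma adjusted p = 0.0112).

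Matrix partners went both ways, with 8 of 14 higher, 5 lower and 1 not past the threshold (median log2 change 0.18), where 31.5% of all tested genes rose and 37.2% fell. Eln, named after its value was seen, is among the higher genes and averaged 0.445 FPKM in WT. It passed the filter on low values only through the libraries labelled Prkcz-/-, so the count and median depend partly on the filter. Col6a1, a collagen VI chain, measured 429.9 ± 0.659 FPKM in libraries labelled Prkcz-/- and 97.2 ± 7.56 FPKM in WT (log2 change 2.14), and Col5a1, which starts collagen fibrils, 241 ± 5.65 FPKM in libraries labelled Prkcz-/- and 145 ± 4.70 FPKM in WT (log2 change 0.73). The chains of collagen I were split: Col1a1 rose by 0.71 on the log2 scale, while Col1a2 measured 826 ± 19.2 FPKM in libraries labelled Prkcz-/- and 1172 ± 58.5 FPKM in WT (log2 change -0.50). In the TGF-beta pathway list, which holds regulators and targets linked to several of these genes, 14 of 20 rose, 3 fell and 3 did not pass (median log2 change 0.43), beside 31.5% higher and 37.2% lower over all tested genes. Tgfb3, a ligand of the pathway, measured 78.9 ± 2.64 FPKM in libraries labelled Prkcz-/- and 8.95 ± 0.684 FPKM in WT (log2 change 3.07). Tgfbr3, a co-receptor that presents the ligand, was lower, at 5.01 ± 0.225 FPKM in libraries labelled Prkcz-/- and 19.2 ± 0.909 FPKM in WT (log2 change -1.83). Tgfbr2, the type II receptor, fell too (log2 change -0.90) and is named after its value was seen. Ltbp2, a matrix protein of the latent TGF-beta binding family, measured 23.9 ± 0.690 FPKM in libraries labelled Prkcz-/- and 2.61 ± 0.194 FPKM in WT, and Pmepa1, a feedback target of the pathway, 39.6 ± 1.65 FPKM in libraries labelled Prkcz-/- and 15.7 ± 0.560 FPKM in WT. Acta2, the smooth muscle actin of myofibroblasts, measured 1917 ± 44.7 FPKM in libraries labelled Prkcz-/- and 1179 ± 62.3 FPKM in WT, while Tagln stood at 1029 ± 14.3 FPKM in libraries labelled Prkcz-/- and 1101 ± 77.6 FPKM in WT (limma adjusted p = 0.143).

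**Figure D5:**
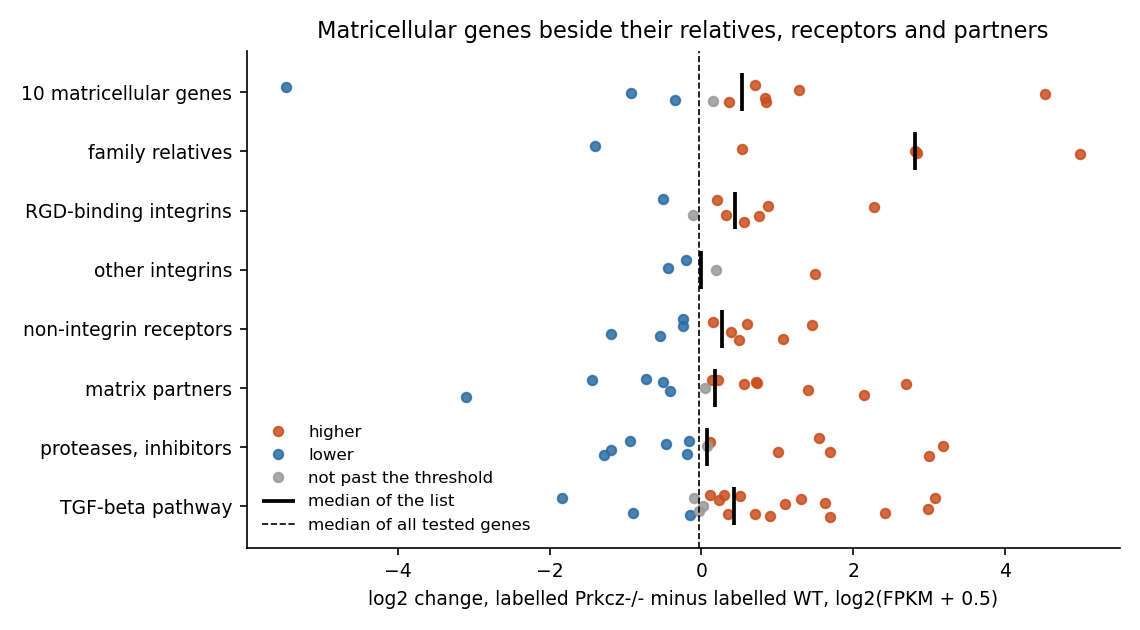
Log2 change, libraries labelled Prkcz-/- minus WT on the log2(FPKM + 0.5) scale, of each tested gene of the 10 matricellular genes and of 7 related lists; each point is a gene, solid bars are list medians and the dashed line the median of all tested genes at -0.04. Tnn is listed at 0 in WT, so its position depends on the pseudocount; the medians run from -0.01 (other integrins) to 2.82 (the 5 tested family relatives), with 0.53 for the 10 genes.

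Some smooth muscle and mesothelial markers also moved. Smooth muscle markers (7 of 7 with a row, none listed at 0 throughout a group) summed to 184 to 189 FPKM in libraries labelled Prkcz-/- and 567 to 609 FPKM in WT, and Actg2 alone measured 52.9 ± 2.81 FPKM in libraries labelled Prkcz-/- and 461 ± 16.3 FPKM in WT. Without Actg2 the sums were 133 to 135 FPKM in libraries labelled Prkcz-/- and 124 to 135 FPKM in WT. Of the 6 tested, 2 rose (Lmod1 and Synpo2), 2 fell (Actg2 and Smtn) and 2 did not pass, where 68.7% of all tested genes were called. Lmod1 measured 22.5 ± 0.600 FPKM in libraries labelled Prkcz-/- and 9.21 ± 0.907 FPKM in WT. Interstitial Cajal cell and mesothelial markers (6 of 7 with a row) summed to 2.04 to 2.19 FPKM in libraries labelled Prkcz-/- and 6.07 to 6.95 FPKM in WT. Among them Msln measured 0.131 ± 0.0126 FPKM in libraries labelled Prkcz-/- and 5.44 ± 0.388 FPKM in WT, with Kit and Wt1 listed at 0 in each WT library. Without Msln the sums were 1.89 to 2.07 FPKM in libraries labelled Prkcz-/- and 0.765 to 1.08 FPKM in WT. Of the 3 tested, Msln fell, Ano1 rose (0.955 ± 0.0128 FPKM in libraries labelled Prkcz-/- and 0.372 ± 0.0339 FPKM in WT) and Etv1 did not pass. That count too stands beside the 68.7% of all tested genes called. Msln and Ano1 each passed the filter on low values only through the label where they were high. Glial and neuronal markers (8 of 8 with a row) summed to 36.1 to 37.6 FPKM in libraries labelled Prkcz-/- and 16.7 to 20.3 FPKM in WT. Tubb3 alone measured 35.4 ± 1.27 FPKM in libraries labelled Prkcz-/- and 17.6 ± 1.79 FPKM in WT, with Gfap at 0 in each WT library. Without Tubb3 the sums were 1.38 to 2.20 FPKM in libraries labelled Prkcz-/- and 1.09 to 1.12 FPKM in WT. The part of all these markers in the changes of Dpt, Tgfbi and the other members was not tested.

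For 3 members the genes with the most similar values were sought, by Euclidean distance of log2(FPKM + 0.5) over the 6 libraries. Nearest to Tgfbi were Efemp1 (distance 0.31), Dkk3 (0.41) and Igfbp4 (0.63). Efemp1, a fibulin of the matrix, measured 159.9 ± 2.23 FPKM in libraries labelled Prkcz-/- and 6.80 ± 0.541 FPKM in WT, and Igfbp4, a binding protein of insulin-like growth factors, 140.4 ± 2.27 FPKM in libraries labelled Prkcz-/- and 6.90 ± 2.13 FPKM in WT. Nearest to Dpt were Ptgis (0.98), Asb5 (1.12) and Hoxd13 (2.03). Nearest to Spp1 were Arpc4 (0.10), Sf3a3 (0.14) and Uba2 (0.15). Closeness in 2 groups of 3 libraries is a description of these values.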

How the data were processed

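Polyadenylated RNA of 6 libraries, 3 labelled Prkcz-/- and 3 labelled WT, was made into strand-specific libraries and read from a single end, per the labels' protocols. The authors deposited 1 table of FPKM values, 1 column per library. STAR, DESeq2 and the build mm10 are named in the submitters' processing notes, with no roles. How reads were assigned to genes, and with which annotation and strand setting, was not given in the sources used here.

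FPKM values are not counts, so log2(FPKM + 0.5) was compared with limma 3.58.1 in R 4.3.3 (variance trend, two-sided, Benjamini-Hochberg adjustment over all genes tested, threshold 0.05). The filter kept 12130 of 16874 genes, those averaging 0.5 FPKM or more over the 6 libraries. A gene could thus pass through the group where it was high, and the counts of the lists include such genes. Fold changes on this scale understate the change of low genes. The fit was tested on simulated data. Ratios of members had an exact permutation test in SciPy 1.17.1. Genes were placed by GENCODE M21 (GRCm38, which is mm10), and start regions are RefSeq's on GRCm38.p6, the same build. Depth was estimated from genes under 0.15 FPKM and annotated exon lengths. It is approximate, and so are the read numbers derived from it.

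The members, lists and tests were chosen with earlier results of these data known. Genes named were all members, the study's target, and from each list of related genes up to 4 with the smallest p and the 2 with the highest mean FPKM. The nearest genes to Dpt, Tgfbi and Spp1 were also named. Cell type markers were named after their values were seen. The pseudocount, filter, scaling, threshold, variance trend and library weights were each changed in turn, a replicate block was added, and each library was left out. Scaling to the FPKM sum was added after seeing the data. The value of a listed marker gene is not reported here.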

Additional observations from a re-analysis of the deposited data

How the results depend on the processing

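The count of members called was 6 higher and 3 lower under every setting tried except 4. Requiring at least 2-fold as well left 2 members higher and 1 lower, and 884 and 431 of all tested genes. Thbs1 made a seventh higher member with quantile normalization, after scaling to the FPKM sum and without WT replicate 3. The cause was not tested. Leaving out each library in turn gave 6 to 7 members higher and 3 lower, with 3477 to 3813 of all genes higher and 4152 to 4320 lower. Scaling to the FPKM sum moved the median log2 change of all genes to 0.06. No gene of the related lists that was called as deposited was called in the other direction under the 3 other scalings, though some calls were lost or gained. No member changed direction under any setting, and no ratio of members did so with another pseudocount or without any 1 library. Of the called members, the log2 change of Sparc ran from 0.10 to 0.45 over the settings, that of Tgfbi from 4.40 to 4.68 and that of Dpt from -5.78 to -5.15.

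Libraries with the same number in the labels had correlations of deviations across genes of 0.06, 0.01 and 0.01 for numbers 1 to 3. Deviations from a mean of 3 libraries depend on each other. This check therefore cannot tell whether libraries of the same number share an animal, dish or preparation. With a replicate block the fit called 6 members higher and 3 lower, and 3718 and 4375 of all genes. Over all pairs across the labels the correlations of deviations ran from -0.07 to 0.06, with library 3 labelled Prkcz-/- and WT library 2 as the highest pair. With 3 libraries per label and Dpt at few reads in those labelled Prkcz-/-, the depth limits the precision of its fold.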

Other observations

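Genes for proteases that cut matricellular proteins, and for their inhibitors, were split. Of 14 listed, 13 were tested, 6 rose, 6 fell and 1 did not pass (median log2 change 0.07, beside -0.04 for all tested genes, of which 31.5% rose and 37.2% fell). The split depends on scaling, with 7 higher and 5 lower under quantile normalization and 7 higher and 4 lower of 14 tested after scaling to the FPKM sum (median log2 change 0.18 in both). The inhibitor Timp3 measured 376 ± 5.10 FPKM in libraries labelled Prkcz-/- and 41.1 ± 2.55 FPKM in WT (SD, n = 3 each, log2 change 3.18, limma adjusted p = 3.66e-09). The inhibitor Timp2 measured 489 ± 7.48 FPKM in libraries labelled Prkcz-/- and 243 ± 1.98 FPKM in WT (log2 change 1.01, limma adjusted p = 6.12e-08). Timp1, named after its value was seen, fell, at 106 ± 0.450 FPKM in libraries labelled Prkcz-/- and 206 ± 14.7 FPKM in WT. Plau, the urokinase that starts plasmin formation, fell to 37.8 ± 1.42 FPKM in libraries labelled Prkcz-/- against 92.5 ± 1.15 FPKM in WT (log2 change -1.28). Mmp9, a gelatinase that also cuts osteopontin, was low but rose, at 4.97 ± 0.571 FPKM in libraries labelled Prkcz-/- and 0.184 ± 0.0295 FPKM in WT (limma adjusted p = 2.52e-07). Mmp9 passed the filter on low values only through the libraries labelled Prkcz-/-.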
